A study of Mus musculus with 14 samples.

Results

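Gata4, Gata6, Foxa2, Sox17, Sox7, Eomes, Mixl1, Gsc, Mesp1 and Cdx2 encode transcription factors of mesoderm, endoderm and trophectoderm, that is, of lineages other than the neural one. They are 10 of the 20185 protein-coding genes that could be given a start-site bin, and were chosen by name, not by a measured value. The data are H3K4me3 PLAC-seq from mouse cells, in which chromatin bearing the promoter mark H3K4me3 is immunoprecipitated after proximity ligation, so that contacts of marked promoters are enriched. All cells descend from the F123 mouse ES cell line with a CTCF-AID allele, a fusion of CTCF to an auxin-inducible degron that the controls carry too. The 4 groups were ESCs with 0 h of auxin (ESC control), ESCs with 48 h of auxin (ESC auxin), NPCs (neural precursor cells) on day 4 without auxin (NPC control) and NPCs on day 4 with auxin (NPC auxin), each with 2 samples. Auxin was used at 1 µl of a 500 mM stock per ml of medium, and the hours of auxin in NPCs are not given in the sources used here. How many clones of the degron line were used is not given either. The remaining 6 of the 14 samples, in 3 groups with dCas9, were not analysed here.

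Each group had 1 list of called contacts from the caller MAPS and 1 from the caller FitHiChIP, 8 lists in all. A contact in a list, called a loop here, is a pair of 10 kb bins. Every loop with an anchor in the bin of a gene's start site was taken for that gene. Since each group has 1 list per caller, differences between groups carry no replicate check, and p-values are not given. Intervals are exact 95% intervals that cover counting error only. In bulk cells, fewer cells with a contact and fewer contacts per cell cannot be told apart. Wherever 4 values follow each other below, their order is ESC control, ESC auxin, NPC control, NPC auxin. In that order the MAPS lists held 56714, 27610, 82861 and 41667 loops. The contacts behind the FitHiChIP lists ranged from 47519917 to 59961568. Of the NPC markers, 5 of 6 with reads in both control lists had more reads per 1000000 contacts (called scaled reads below) in NPC control (median ratio 1.52), as had 1 of 4 ESC markers (median ratio 0.721).

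GATA4 and GATA6 are zinc finger factors of the extraembryonic and definitive endoderm and of the heart, FOXA2, SOX17 and SOX7 act downstream or beside them in endoderm, and EOMES, MIXL1, GSC and MESP1 act in the primitive streak and the mesoderm that leaves it. CDX2 specifies trophectoderm and later the posterior body and the intestine. In ESCs and in neural precursors these genes are normally silent or low, and many such developmental promoters carry H3K4me3 together with the repressive mark H3K27me3. CTCF stops extruding cohesin and so sets many of the limits within which a promoter meets distal elements.

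RefSeq promoter sequences of the build GRCm38.p6 were matched for 5 of the 10 genes: Foxa2, Eomes, Gsc, Mesp1 and Cdx2. The 250 bases before the start are shown for Eomes, Gsc and Mesp1. These genes were chosen because their MAPS loop numbers, scaled to the list totals, had changes of opposite sign with auxin in the 2 cell types. Intervals of these changes include 0 for Eomes in ESCs and NPCs, Gsc in ESCs and Mesp1 in NPCs. A further reason is that auxin removes CTCF, which was named for binding CCCTC repeats. Capitals mark CCCTC on either strand (GAGGG on the other) and TATAAA. The last base of each sequence is the base before the start site.
Eomes: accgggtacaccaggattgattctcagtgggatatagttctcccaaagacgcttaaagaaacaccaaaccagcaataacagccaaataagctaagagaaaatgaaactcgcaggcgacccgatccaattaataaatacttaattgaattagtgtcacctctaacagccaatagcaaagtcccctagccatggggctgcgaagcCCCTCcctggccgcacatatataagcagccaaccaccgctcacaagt
Gsc: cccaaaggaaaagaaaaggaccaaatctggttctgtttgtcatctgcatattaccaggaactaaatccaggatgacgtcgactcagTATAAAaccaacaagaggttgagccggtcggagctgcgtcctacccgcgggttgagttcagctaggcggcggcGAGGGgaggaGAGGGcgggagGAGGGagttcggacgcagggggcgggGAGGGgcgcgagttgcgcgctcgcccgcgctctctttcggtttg
Mesp1: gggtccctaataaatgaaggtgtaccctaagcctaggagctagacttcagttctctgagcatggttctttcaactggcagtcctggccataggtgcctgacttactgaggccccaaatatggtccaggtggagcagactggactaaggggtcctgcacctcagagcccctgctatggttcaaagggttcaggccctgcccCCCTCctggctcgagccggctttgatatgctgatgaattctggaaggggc
They lie on chromosome 9 at 118477939 to 118478188 (plus strand), chromosome 12 at 104473237 to 104473486 (minus strand) and chromosome 7 at 79793591 to 79793840 (minus strand).

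CCCTC, searched on both strands, occurred 4 times before Gsc, 2 times before Cdx2 and once each before Foxa2, Eomes and Mesp1. These short letters occur in 60.5% of 32851 promoters of the same length, so their presence is common. The longer CTCF core motif, also searched on both strands, was in none of the 5 and is in 2.07% of all promoters. TATAAA was found before Gsc at position -164, counted from -1 at the last base before the start, and is in 12.4% of all promoters. The 4 matches of CCCTC before Gsc did not overlap each other or TATAAA. CpG numbered 22 before Gsc, 13 before Cdx2, 8 before Eomes, 6 before Foxa2 and 2 before Mesp1, against a median of 6 over all promoters. A match of letters is a description and not a binding site, and 10 kb bins hold far more sequence than was searched.

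On mm10, the start-site bins lay at 63240001 to 63250000 on chromosome 14 for Gata4, 11050001 to 11060000 on chromosome 18 for Gata6, 148040001 to 148050000 on chromosome 2 for Foxa2 and 4490001 to 4500000 on chromosome 1 for Sox17. They lay at 63940001 to 63950000 on chromosome 14 for Sox7, 118470001 to 118480000 on chromosome 9 for Eomes, 180690001 to 180700000 on chromosome 1 for Mixl1, 104470001 to 104480000 on chromosome 12 for Gsc, 79790001 to 79800000 on chromosome 7 for Mesp1 and 147300001 to 147310000 on chromosome 5 for Cdx2. No bin held the start of another protein-coding gene. The Gata4 gene spans 9 bins and its start site was not given, so the bin with the most reads (up to 7782, against at most 2533 in the others) was used. Sox7 and Gata4 lie 700 kb apart on the same chromosome, and 0 loops joined start-site bins of 2 of the 10 genes.

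Together the 10 start-site bins held 92, 78, 144 and 106 MAPS loops. Of the 10 genes 8, 7, 9 and 8 had a loop in these lists. FitHiChIP called 58, 51, 83 and 59. Cdx2 held the most MAPS loops in both ESC lists, and Foxa2 in both NPC lists. Sox7 held them in NPCs alone, and Mixl1 held 0 in each MAPS list. The number was below control in both auxin lists, but by less than in the lists as a whole: the genes held 84.8% as many loops in ESC auxin as in ESC control, where the whole list held 48.7%, and 73.6% as many in NPCs, where the whole list held 50.3%.

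**Figure D1:**
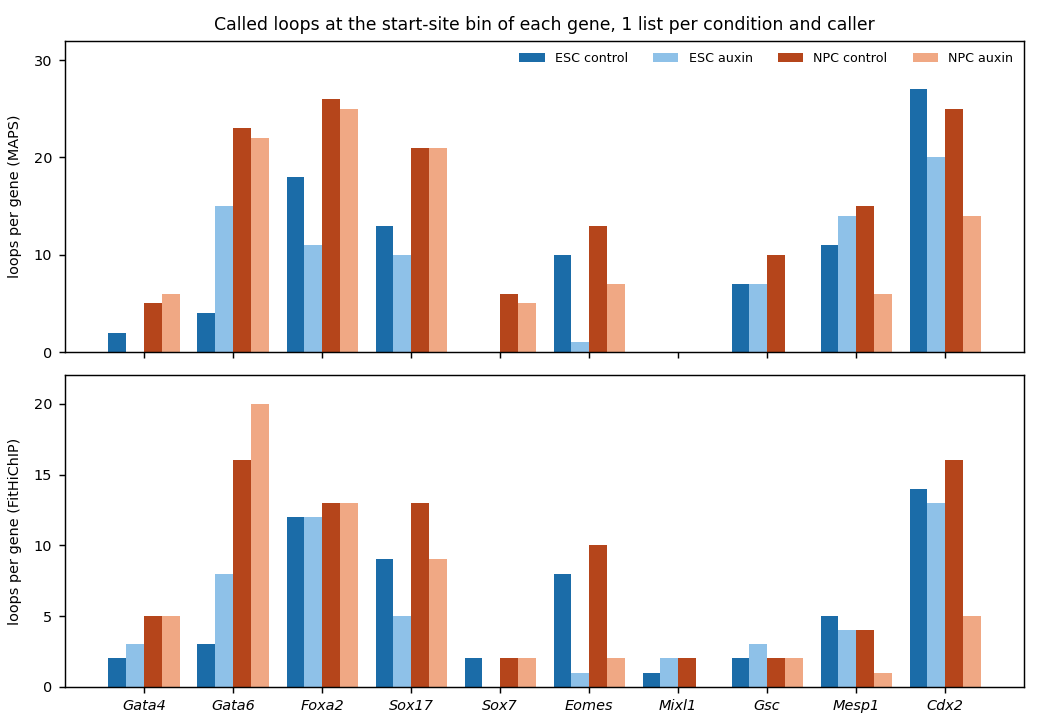
Number of called loops (vertical axis) with an anchor in the start-site bin of each gene, in the MAPS lists (top) and the FitHiChIP lists (bottom). Each bar is 1 list, coloured by condition. Gata6 held 4, 15, 23 and 22 MAPS loops, Eomes 10, 1, 13 and 7, and Gsc 7, 7, 10 and 0.

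Gata6, a regulator of primitive and definitive endoderm and of the heart, held 4, 15, 23 and 22 MAPS loops. ESC control was the low list, and FitHiChIP gave the same lowest list with 3, 8, 16 and 20. The partner with the most contacts in each MAPS list was the bin 40 kb to the lower-coordinate side, with 117, 114, 389 and 407 contacts. Its count thus hardly differed with auxin and was higher in NPCs. Its ratio to the expected count was 2.59, 2.0, 2.9 and 2.9, so in ESC auxin it lay at the MAPS limit of 2. FitHiChIP did not call this bin in ESC auxin, where its nearest partner lay 190 kb away. A second field of partners lay 190 to 230 kb to the same side, where the bin at 190 kb had 50, 82, 152 and 176 contacts. All 4 ESC control loops recurred in the other 3 MAPS lists. In NPC control the field was continuous in most bins from 100 to 290 kb, with 5 further loops 290 to 420 kb to the higher-coordinate side that were in no other MAPS list. With auxin, partners appeared farther out: 7 of 15 loops in ESCs and 6 of 22 in NPCs lay beyond the farthest control partner on the same side. Both auxin MAPS lists held the bin 440 kb away that carries the starts of Esco1, a cohesin acetyltransferase, and Snrpd1, a core spliceosome protein, with 20 contacts in ESCs and 46 in NPCs, and neither control list did.

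Reads covering the Gata6 bin moved with these numbers. They were 5795, 7387, 21439 and 21750 in the FitHiChIP lists, or 121.9, 152.9, 409.6 and 362.7 as scaled reads. NPC control had 3.36 times the scaled reads of ESC control, the highest such ratio of the 10 genes, and ESC auxin had 1.25 times those of ESC control. At the 4 loops present in both control lists the contacts in NPCs exceeded those in ESCs by a median of 1.59 on the log2 scale, after centring on all shared loops. The part of read depth at the bin in the number of its called loops was not tested.

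Gata4, the related factor of endoderm and heart, held 2, 0, 5 and 6 MAPS loops. Its partners in NPCs all lay 90 to 270 kb to the higher-coordinate side, and the bin at 90 kb had 58 contacts without and 72 with auxin in NPCs. With auxin in NPCs 3 of 6 loops, at 220 to 270 kb, lay beyond the farthest control partner at 130 kb. FitHiChIP called 2, 3, 5 and 5 loops there, led in each list by a bin 20 kb away inside the gene with 157, 123, 176 and 188 contacts. Both callers listed 2 of the 5 partners in NPC control, at 110 and 130 kb, and 1 in NPC auxin, at 250 kb, while in ESC control they shared 0.

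Foxa2, a forkhead pioneer factor of the node, endoderm and floor plate, held 18, 11, 26 and 25 MAPS loops, and its partners changed more than their number. In ESC control and ESC auxin the strongest partner was the bin of Pax1, a paired-box factor of the sclerotome, 680 kb away, with 66 and 82 contacts, against 26 and 39 in the NPC lists. At 860 kb lay the bin of Nkx2-2, a homeobox factor of the ventral neural tube and pancreas, with 48 contacts in ESC control, 73 in ESC auxin and 26 in NPC auxin, and no call in NPC control. FitHiChIP gave the same partners, with 60, 75, 23 and 38 contacts at Pax1 and 47, 71 and 25 at Nkx2-2. In the MAPS list of NPC control a near field opened instead, to the lower-coordinate side and downstream of the gene. Its bins at 40, 60, 70 and 80 kb had 168, 167, 135 and 135 contacts and were in no other MAPS list. The ratio to the expected count at 40 kb was 2.06, where the MAPS lists start at 2. FitHiChIP did not call this near field, and its nearest partner in NPC control lay 140 kb away.

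With auxin the middle field of Foxa2 thinned in the MAPS lists and the far partners made up more of its loops. Between 130 and 270 kb ESC control held 10 loops and ESC auxin 2. The median MAPS distance was 260 kb in ESC control and 680 kb in ESC auxin, and 185 kb in NPC control and 640 kb in NPC auxin. The FitHiChIP medians were 675 and 685 kb in ESCs, without that shift, and 220 and 680 kb in NPCs. To the higher-coordinate side, the bin of the thrombomodulin gene Thbd at 360 kb had 42 and 61 contacts in ESCs, and that of the somatostatin receptor gene Sstr4 at 350 kb had 36 in ESC auxin and 55 in NPC auxin. NPC auxin further held 7 loops at 630 to 710 kb, over Nxt1 (42 contacts), Gzf1 (44), Napb (27) and Cstl1 (17). In that range ESC control held 1 MAPS loop, ESC auxin 0 and NPC control 2. The bin at 630 kb had 24 contacts in ESC control and 32 in NPC control, and that at 680 kb had 21 in NPC control. FitHiChIP listed the bin at 630 kb in each list, with 20, 20, 32 and 44 contacts. At the 7 loops shared by the ESC lists, contacts in ESC auxin exceeded the centre of all shared loops by a median of 0.48 on the log2 scale. Scaled reads at Foxa2 were 143.1, 141.6, 268.0 and 234.9, so the ESC lists had nearly the same depth.

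Sox17, an HMG-box factor of endoderm, held 13, 10, 21 and 21 MAPS loops, each on the higher-coordinate side. The strongest partner in every MAPS list lay 270 kb away, with 101, 62, 170 and 70 contacts. Its ratio to the expected count was 8.74, 5.36, 12.6 and 4.4, so this contact was lower in both auxin lists. FitHiChIP had 91, 62, 165 and 72 contacts at the same pair. Around it, MAPS bins from 70 to 400 kb were called, among them those of the mitochondrial ribosomal protein gene Mrpl15 at 290 kb (36 contacts in ESC control and 74 and 56 in the NPC lists) and of the thioesterase gene Lypla1 at 310 kb (33, 53 and 59 in ESC auxin, NPC control and NPC auxin). MAPS loops at 520 to 570 kb were in the ESC lists and at 580 to 600 kb in NPC control. FitHiChIP did not give this split, as it listed the bin at 530 kb in NPC control too. That bin had 30, 33 and 22 contacts in ESC control, ESC auxin and NPC control. Of the Sox17 loops, 7 of 13 were called again with auxin in ESCs and 15 of 21 in NPCs.

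Sox7, a relative of Sox17 in primitive endoderm and endothelium, held 0, 0, 6 and 5 MAPS loops. Its NPC partners lay 60 to 140 kb to the higher-coordinate side, and 4 of the 6 control loops recurred with auxin, with 41 and 46 contacts at 90 kb and 51 and 52 at 100 kb. FitHiChIP called 2, 0, 2 and 2 loops, so FitHiChIP did list contacts in ESC control, one of them at 100 kb with 20 contacts. The bin had the fewest reads of the 10, with 2287 in ESC control and 4308 and 4551 in the NPC lists.

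**Figure D2:**
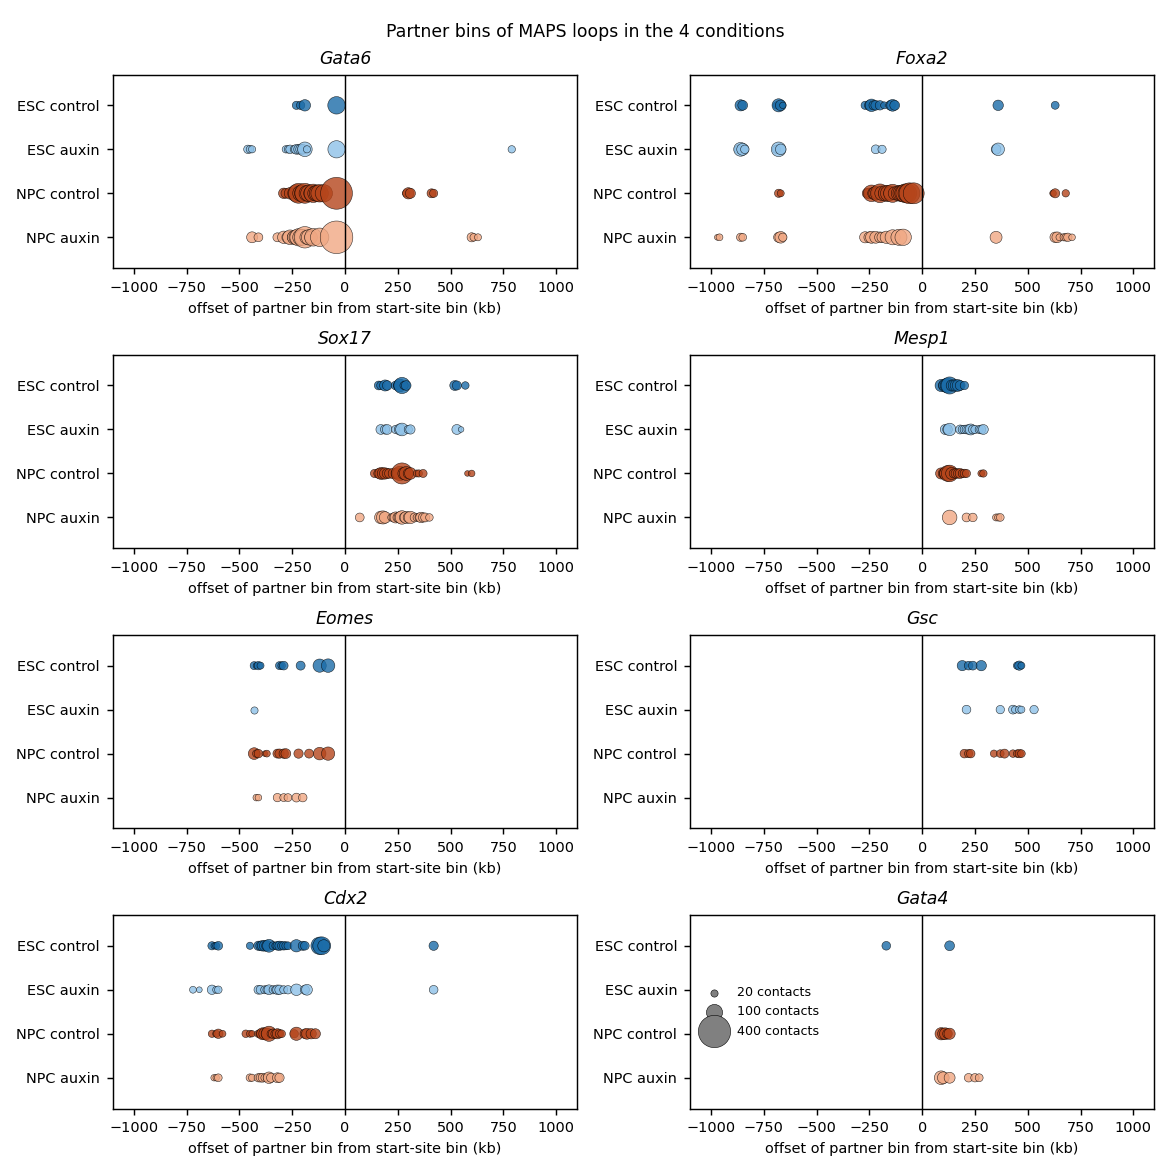
Offset in kb of each partner bin from the start-site bin (horizontal axis, positive to higher coordinates) for 8 genes in the 4 MAPS lists, with circle area proportional to the contact count. Eomes had partners on the lower side and Gsc, Mesp1 and Sox17 on the higher side. Foxa2 had a field within 80 kb in NPC control alone, which FitHiChIP did not call.

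Eomes, a T-box factor of the primitive streak, held 10, 1, 13 and 7 MAPS loops, each upstream of the gene, and ESC auxin was the low list. FitHiChIP had the same lowest list with 8, 1, 10 and 2 loops. In both control lists the strongest partners lay 80 and 120 kb away, with 70 and 67 contacts in ESCs and 68 and 61 in NPCs, and neither was called by MAPS with auxin. FitHiChIP listed the bin at 80 kb in the NPC lists, with 61 and 53 contacts. The 1 loop of ESC auxin joined the bin of Azi2 and Zcwpw2 at 430 kb, which had 25 contacts in ESC control, 20 in ESC auxin and 53 in NPC control. Azi2 encodes an adaptor of innate immune kinases. In NPC auxin the partners lay 200 to 420 kb away with at most 30 contacts, among them Cmc1, a gene of cytochrome oxidase assembly, at 320 kb with 31 contacts in control and 27 with auxin. Scaled reads were 96.0, 102.1, 119.8 and 114.2, so reads were not lower in ESC auxin. The Eomes gene continues into the next bin, which held 13, 4, 21 and 10 loops. With the 2 neighbouring bins counted, Eomes no longer passed the 2-fold rule used below.

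Mixl1, a homeobox gene of the primitive streak, held 0 MAPS loops in all 4 lists. FitHiChIP called 1, 2, 2 and 0, with the bin 70 kb away at 103, 85 and 101 contacts in the first 3 lists. The bin of Acbd3, a Golgi protein gene, 30 kb away had 104 contacts in ESC auxin.

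Gsc, a homeobox gene of the organizer, held 7, 7, 10 and 0 MAPS loops, each upstream of the gene at 190 to 530 kb, and NPC auxin was the low list. The ESC lists had 7 loops each but shared 2 of them. In ESC control the strongest partner, with 41 contacts, was the bin of Dicer1, which encodes the ribonuclease that matures miRNAs, 280 kb away. In NPC control it was that of Clmn at 390 kb with 31 contacts, and in ESC auxin a bin at 430 kb with 30. The bins at 460 and 470 kb were called in 3 lists, with 33, 23 and 27 and with 19, 19 and 23 contacts. FitHiChIP called 2, 3, 2 and 2 loops, and its 2 in NPC auxin lay 940 and 1050 kb to the other side, at Ppp4r4 and Ddx24, beyond or near the 1000 kb limit of MAPS. Loops to the upstream field were thus in neither NPC auxin list. MAPS counts at Gsc were 19 to 41, where the lists start at 12 contacts. Its scaled reads were 123.1, 128.0, 141.7 and 135.0.

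Mesp1, a basic helix-loop-helix factor of early cardiac mesoderm, held 11, 14, 15 and 6 MAPS loops, each upstream. The bin of Ap3s2, which encodes a subunit of a vesicle adaptor complex, 130 kb away was the strongest partner in each MAPS list with 112, 60, 106 and 82 contacts, and FitHiChIP gave 107, 59, 106 and 76. ESC control partners filled 90 to 200 kb, whereas ESC auxin partners lay at 110 to 290 kb, and 8 of these 14 lay beyond the farthest control partner. One of them was the bin of the zinc finger gene Zfp710 at 230 kb with 46 contacts. All 11 ESC control loops were also in NPC control. With auxin in NPCs 2 of 15 loops were called again, and 3 of the 4 others lay at 350 to 370 kb with 19 to 23 contacts. The higher loop number of ESC auxin thus came with lower counts: at the 5 shared loops contacts were 0.66 lower on the log2 scale (median) than over all shared loops.

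Cdx2, the caudal homeobox gene of trophectoderm, held 27, 20, 25 and 14 MAPS loops, the most of the 10 genes in ESC control. All but 1 in each ESC list lay downstream of the gene. In ESC control the strongest partners were the bin of Gsx1, a homeobox gene of the forebrain, at 120 kb with 116 contacts and the bin beside it at 110 kb with 122, and no other MAPS list held them. FitHiChIP called the Gsx1 bin in 3 lists with 108, 74 and 79 contacts, and that of Pdx1, the pancreatic homeobox gene, at 30 kb in the 2 ESC lists with 190 and 181. The field around Gtf3a, which encodes the factor of 5S rRNA transcription, 360 kb away was in each list with 63, 37, 88 and 51 contacts. The bin of Lnx2 and Polr1d at 230 kb had 58, 51 and 67 contacts and no call in NPC auxin. Flt1, which encodes a VEGF receptor, at 420 kb to the other side had 33 and 29 contacts in the ESC lists and no call in NPCs. In NPC auxin 13 of the 14 loops had been in NPC control and none was nearer than 310 kb, against 140 kb in control. Scaled reads were 160.1, 159.1, 162.3 and 161.3, the flattest of the 10 genes.

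**Figure D3:**
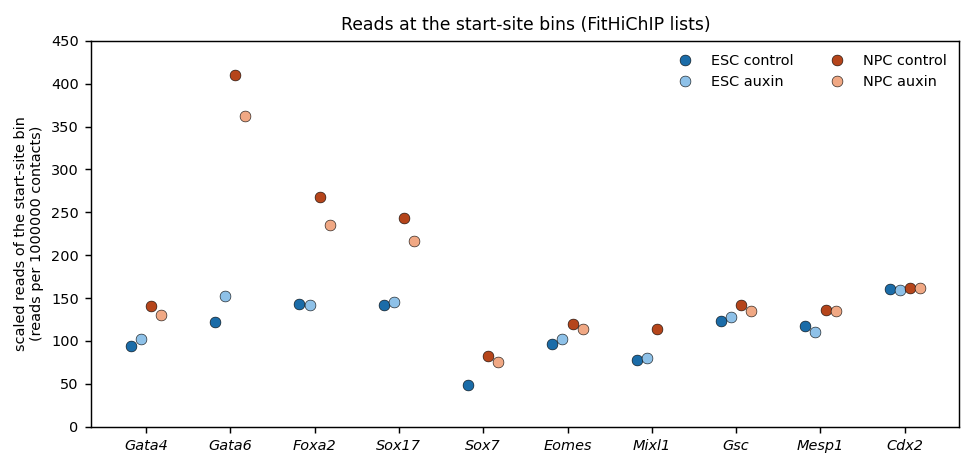
Reads covering each start-site bin per 1000000 contacts (scaled reads, vertical axis), taken from the FitHiChIP lists, with 1 point per condition and no point where no FitHiChIP loop gave a value. Gata6 went from 121.9 in ESC control to 409.6 in NPC control, while the 4 values of Cdx2 lay between 159.1 and 162.3.

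To compare numbers of loops between lists of different length, the change of a bin was taken as the log2 ratio of its loops plus 1 in each list, less the log2 ratio of both list totals. A bin was called lower or higher when this relative change was 1 or more in size (2-fold) and the bin held at least 5 loops over both lists. The added loop lifts bins with few loops when the second list is the shorter one, so the same rule over all start-site bins is given as the background. With auxin, a bin with the same number of loops in both lists comes out at 1.04 in ESCs and 0.99 in NPCs. A call of higher in ESCs can thus mean an unchanged number of loops in a shorter list. Both auxin comparisons use their own control, while the 4 comparisons share lists with each other, so they are given side by side and not as independent evidence.

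In ESCs, 1 of the 7 genes with enough loops was called lower with auxin, Eomes at -1.42, where 14.3% of all 3901 bins were, and 9.95% of all bins held 0 loops with auxin, as 0 of the 7 genes did. Gata6 at 2.72 (interval 1.30 to 5.00), Mesp1 at 1.36 (0.14 to 2.67) and Gsc at 1.04 (-0.70 to 2.78) were called higher, 3 of 7, where 26.2% of all bins were. The number of Gsc loops was unchanged, at 7 in each list. Cdx2 at 0.62, Sox17 at 0.69 and Foxa2 at 0.38 were in neither class. The median over the 7 genes was 0.69 and that of all bins 0.30. Summed over the 10 genes the relative change was 0.80 (0.35 to 1.25), computed without the added loop. Without Gata6 it was 0.56 (0.07 to 1.04), an alternative chosen after seeing the data. FitHiChIP gave 0.37 (-0.20 to 0.94), an interval that includes 0, with Gata6 as the 1 gene called higher (background 8.93%) and Eomes as the 1 called lower (background 12.0%). Intervals treat loops as independent although many are neighbouring bins, so they are likely too narrow.

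In NPCs, 1 of 9 genes was called lower with auxin, Gsc at -2.47 with an upper interval bound of -0.17 (background 15.8% of 5485 bins), and 1 was called higher, Gata4 at 1.21 (-0.72 to 3.31; background 18.4%). Without any loop left with auxin were 9.13% of all bins, as Gsc was. Sox17 at 0.99 (0.05 to 1.94), Foxa2 at 0.94 (0.08 to 1.79) and Gata6 at 0.93 (0.02 to 1.84) lay just under the 2-fold rule. Their intervals lie above 0 but include 0.25, the median of all bins. The number of Sox17 loops was unchanged, at 21 in each list. Intervals of single genes were computed without the added loop. Mesp1 lay at -0.20 (-1.98 to 1.12). The summed change was 0.55 (0.17 to 0.92), and the median over the 9 genes was 0.77 against 0.25 for all bins. FitHiChIP gave a sum of 0.36 (-0.15 to 0.86), called Eomes lower at -1.02 (background 7.6%) and Gata6 higher at 1.16 (background 18.0%), and gave Gsc 2 loops in each list.

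**Figure D4:**
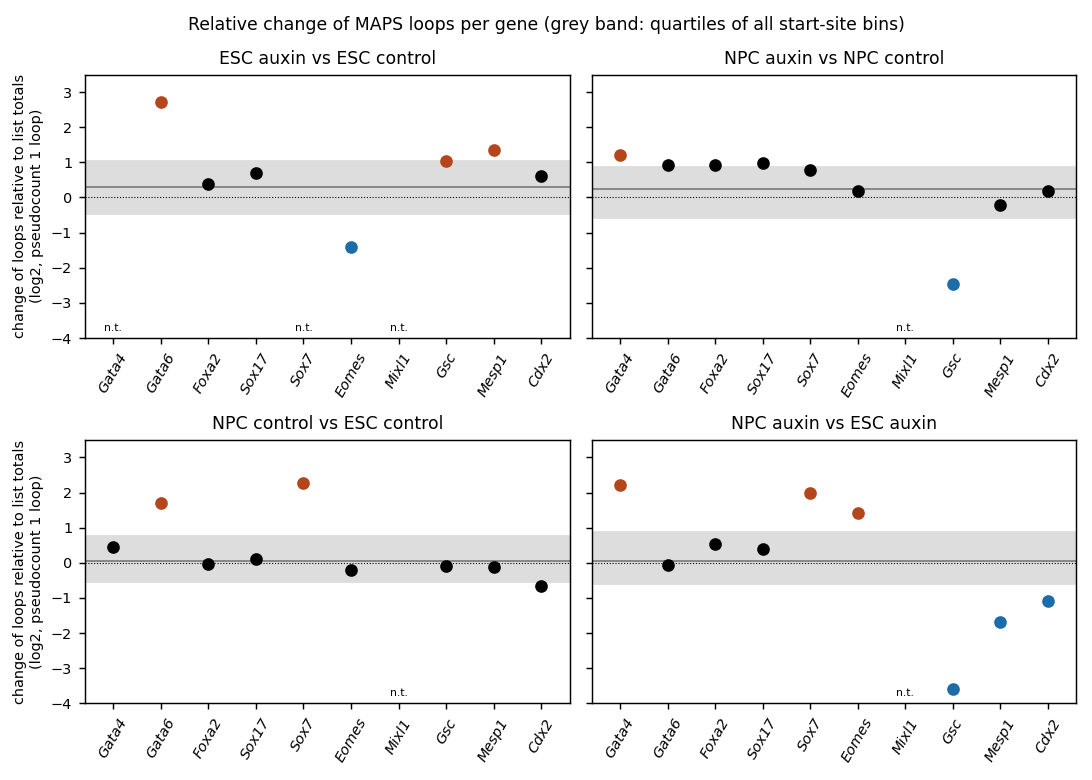
Relative change of MAPS loops per gene (vertical axis, log2) in 4 comparisons, with genes called higher in red, called lower in blue and others in black; n.t. marks genes with under 5 loops. The grey band spans the quartiles and the grey line the median of all start-site bins; Gata6 lay at 2.72 in ESCs with auxin and Gsc at -2.47 in NPCs with auxin.

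Between the control lists of the 2 cell types, 2 of 9 genes were called higher in NPCs, Gata6 at 1.72 (0.43 to 3.97) and Sox7 at 2.26, where 20.6% of bins were, and 0 were called lower, where 13.1% were. FitHiChIP called Gata6 higher as well (1.66, background 17.9%) and 0 lower (background 8.85%). The other 7 genes lay between -0.65 (Cdx2) and 0.45 (Gata4), and the summed change was 0.10 (-0.29 to 0.49). Scaled reads were higher in NPC control at each of the 10 genes, by ratios of 1.01 (Cdx2) to 3.36 (Gata6), with Foxa2 at 1.87 and Sox17 and Sox7 at 1.71. Ratios at Gsc (1.15) and Mesp1 (1.16) were near 1. The same count over all start-site bins is not given, so the 10 genes cannot be set against the series here. Whether these reads reflect more H3K4me3 at the bins was not tested.

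Between the auxin lists, Gata4 at 2.21, Sox7 at 1.99 and Eomes at 1.41 were called higher in NPCs (3 of 9, background 21.0%), and Gsc at -3.59, Mesp1 at -1.69 and Cdx2 at -1.08 lower (3 of 9, background 17.9%). FitHiChIP called Mesp1 (-1.45) and Cdx2 (-1.35) lower (background 7.65%) and Gata6 (1.09) higher (background 26.5%). The summed change was -0.15 (-0.59 to 0.29).

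The ESC auxin list again held 43 of the 92 ESC control loops of the 10 genes, or 46.7% (36.3 to 57.4), and the NPC auxin list 68 of 144, or 47.2% (38.9 to 55.7). Over all loops these shares were 22.9% and 27.0%. In single bins with at least 5 control loops the median share was 22.2% in ESCs and 25.0% in NPCs, and 5 of 6 and 7 of 9 of the genes here lay above it. In ESCs the shares ran from 4 of 4 for Gata6 and 17 of 27 for Cdx2 to 2 of 7 for Gsc, 1 of 10 for Eomes and 0 of 2 for Gata4. In NPCs they ran from 15 of 21 for Sox17 and 14 of 23 for Gata6 to 2 of 15 for Mesp1 and 0 of 10 for Gsc.

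The FDR of the control loops differed as well, while the ratio of count to expected did so in ESCs alone. The loops of the 10 genes had a lower median FDR in ESC control (1.22e-05) than all loops at start-site bins (9.32e-05), and in NPC control (3.25e-07 against 2.1e-05). Their median ratio was higher in ESC control (3.005 against 2.805) but slightly lower in NPC control (2.883 against 2.927). Among control loops with an FDR under 1e-04, 54.2% of those of the 10 genes were called again in each cell type, against 33.7% of all such loops at start-site bins in ESCs and 36.4% in NPCs. In the FitHiChIP lists the shares were 55.2% (41.5 to 68.3) in ESCs, where all loops gave 43.3%, and 42.2% (31.4 to 53.5) in NPCs, where all loops gave 35.8%, and both intervals include the share of the whole list.

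**Figure D5:**
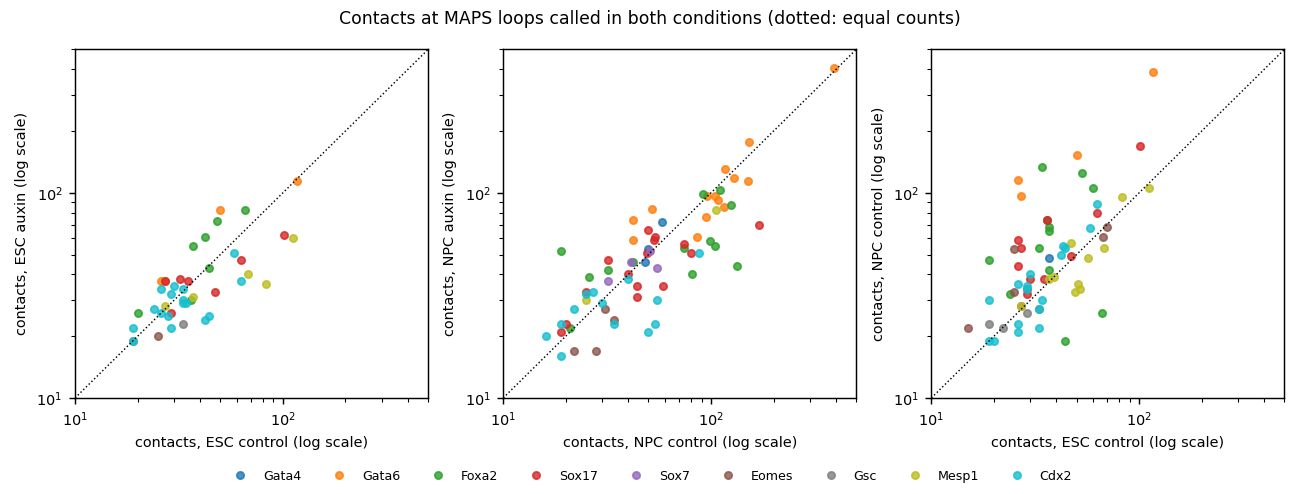
Contact counts of loops called in both conditions, in ESCs with and without auxin (left), NPCs with and without auxin (middle) and the control lists of both cell types (right); both axes are logarithmic, each point is 1 loop coloured by gene, and the dotted line marks equal counts. The Gata6 loop 40 kb from the start had 117 and 114 contacts in ESCs, 389 and 407 in NPCs.

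At the loops that were called again, contact counts of the 10 genes followed those of all shared loops: the median difference, centred on all shared loops, was 0.07 in ESCs and 0.02 in NPCs on the log2 scale. Loops that dropped under a threshold are not among them. Single genes departed from this in ESCs, with Gata6 at 0.59, Foxa2 at 0.48 and Mesp1 at -0.66. Over the 4 MAPS lists the 10 genes had 218 different partners, of which 98 were in 1 list, 60 in 2, 38 in 3 and 22 in all 4. The same split over all loops is not given, so whether these numbers are usual cannot be told here. The 22 belonged to Cdx2 (9), Sox17 (5), Gata6 (4), Foxa2 (3) and Mesp1 (1), and none to Gata4, Sox7, Eomes or Gsc.

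In the MAPS lists partners lay farther out with auxin at most of the genes, and in the FitHiChIP lists at fewer. The median MAPS distance was higher with auxin at 7 of 7 genes with loops in both ESC lists and at 6 of 8 in NPCs, where 55.0% and 59.9% of all bins with loops in both lists were higher. The median shift was 75 kb in ESCs and 30 kb in NPCs, against 5 and 10 kb over all bins. In ESCs it ran from 260 to 265 kb at Sox17 up to 260 to 680 kb at Foxa2. In NPCs Sox7 (115 and 100 kb) and Eomes (310 and 290 kb) went the other way. In FitHiChIP the median distance was higher with auxin at 5 of 8 genes with enough loops in ESCs (background 49.6%) and at 3 of 7 in NPCs (background 53.4%), where it was lower at 3 and equal at 1. The MAPS loops over 500 kb numbered 14, 16, 11 and 20. Partner bins with an H3K4me3 peak made up 32.6%, 42.3%, 18.1% and 25.5% of the MAPS loops. Of all MAPS loops at start-site bins, 33.6%, 43.8%, 22.7% and 30.5% had a peak at both anchors. In FitHiChIP these shares were 69.0%, 82.4%, 50.6% and 69.5%, where all start-site loops gave 61.5%, 63.9%, 54.0% and 71.9%. The ESC auxin share of the 10 genes there had an interval of 69.1 to 91.6. For the 10 genes a peak in the partner bin was enough, whereas all start-site loops needed a peak at both anchors. The shares are thus different measures, and no difference is drawn from them.

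Of a list of 38 further genes of mesoderm, endoderm and trophectoderm, 36 had a start-site bin. With auxin in ESCs 0 of 20 with enough loops were called lower (background 14.3%) and 6 higher (background 26.2%), with a median of 0.63 where all bins had 0.30. The lowest were the heart homeobox gene Nkx2-5 (6 and 1 loops) and the mesenchymal forkhead gene Foxc1 (18 and 5), and the highest the endothelial gene Sox18 (3 and 7) and Hand2 (8 and 12), a factor of heart and limb. In NPCs, where 15.8% of all bins were called lower and 18.4% higher, 1 of 17 was called lower, the trophectoderm and neural crest factor Gata3 (55 and 10 loops, -1.36), with the ligand gene Wnt3 (11 and 3) next, and 3 were called higher, led by Foxa1 (30 and 45 loops, 1.56), the paralogue of Foxa2, and Sox18 (4 and 5). The median of 0.25 equalled that of all bins. FitHiChIP gave 1 lower (background 12.0%) and 2 higher (background 8.93%) of 17 in ESCs. In NPCs it gave 1 lower (background 7.6%) and 0 higher (background 18.0%) of 14.

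Of 24 neural genes 22 had a bin, 21 of them on the autosomes that MAPS covers. With auxin in ESCs 1 of 17 was called lower and 4 higher (median 0.45), against the same 14.3% and 26.2%. In NPCs 3 of 16 were called lower, namely Cdh2 (17 and 0 loops), Zic1 (12 and 2) and Neurog1 (7 and 1), and 0 higher, with a median of -0.15. The count of lower calls in MAPS is near the 15.8% of all bins, and 18.4% were called higher. FitHiChIP in NPCs gave 3 of 13 lower, where 7.6% of all bins were, and 2 higher, where 18.0% were. The summed change in NPCs was -0.19 (-0.47 to 0.08) for the neural genes, 0.23 (0.01 to 0.44) for the 36 further lineage genes and 0.55 (0.17 to 0.92) for the 10 genes. In FitHiChIP the sums were -0.23 (-0.63 to 0.16), -0.19 (-0.49 to 0.11) and 0.36 (-0.15 to 0.86), so the further lineage genes changed sign and lay beside the neural genes. The difference between these lists was not tested.

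By the mean absolute difference of log2(loops + 1) over the 8 lists, the gene nearest to Gata6 was Psme4 (0.29), with 4, 11, 29 and 27 MAPS loops. Sox17 had the closest match, F3 (0.09), with 13, 10, 19 and 16. The nearest were Gpr107 for Eomes (0.22), Traf4 for Gsc (0.21), Chst15 for Mesp1 (0.25) and Gprc5b for Cdx2 (0.23). Traf4 held 7, 5, 8 and 0 MAPS loops. These genes were picked for counts like those of the 10 genes, so the likeness, with the 0 of Traf4 in NPC auxin, follows from the choice.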

How the data were processed

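H3K4me3 PLAC-seq was measured in 14 samples, of which the 8 of 4 groups were used. BWA, Picard and the build mm10 are named, without versions, in the submitters' processing notes. The deposited files are 1 MAPS and 1 FitHiChIP list per group. The sources used here do not state if both samples of a group were merged before calling. Per the file headers, each deposited loop has a contact count, a ratio of count to expected (MAPS), an FDR or q-value, the expected signal under the caller's model, and in FitHiChIP the reads covering each anchor and a deposited fraction of all contacts. Dividing expected contacts by that fraction gave the total contacts of each list. MAPS lists held counts of at least 12, ratios of at least 2, FDR values under 0.01 and distances of 20 to 1000 kb on 19 autosomes, so a missing contact can be one just under a threshold.

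Start-site bins came from the RefSeq promoter table (17492 genes), from genes with both ends in 1 bin (887, with Sox17 and Mixl1), from the 1 gene end in a peak bin (1804, with Sox7), from the stated Gata6 bin, and for Gata4 from the bin with the most reads, a choice made from values. Without a strand, sides are given as lower or higher coordinates. Relative changes used a pseudocount of 1 loop, at least 5 loops and a 2-fold rule, and sums and shares carry exact Clopper-Pearson 95% intervals. No test was possible with 1 list per group. The rule for named genes took all 10 genes, their strongest partner per list, the nearest gene for those with at least 20 MAPS loops, and the 2 lowest and 2 highest of the further lineage genes. Other partners named were chosen after their values were seen. The nearest gene to Foxa2 is not reported here. The genes and lists were chosen with earlier results of these data known. Alternatives were FitHiChIP lists, an FDR under 1e-04, neighbouring bins, no scaling, minimums of 0 or 10 loops, a pseudocount of 0.5 and single genes left out. Python 3.11.15, pandas 2.3.3, SciPy 1.17.1, NumPy 2.4.6 and matplotlib 3.10.9 were used.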

Additional observations from a re-analysis of the deposited data

Results flagged for a closer look

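Eomes, Gsc and Mesp1 had relative changes of loops with auxin of opposite sign in the 2 cell types. Eomes lay at -1.42 in ESCs and 0.18 in NPCs, Gsc at 1.04 in ESCs and -2.47 in NPCs, and Mesp1 at 1.36 in ESCs and -0.20 in NPCs. Intervals include 0 for Eomes in ESCs (-7.72 to 0.53) and NPCs (-1.47 to 1.53). They also include 0 for Gsc in ESCs (-0.70 to 2.78) and Mesp1 in NPCs (-1.98 to 1.12), so the opposite signs are uncertain. Unscaled, Eomes held fewer loops with auxin in ESCs (10 and 1) and in NPCs (13 and 7). Gsc held the same number in ESCs (7 and 7) and fewer in NPCs (10 and 0). Mesp1 held more in ESCs (11 and 14) and fewer in NPCs (15 and 6). With 1 list per group the difference between the cell types was not tested. FitHiChIP gave Eomes -1.61 and -1.02, the same sign in both, Gsc 0.97 and 0.85, and Mesp1 0.30 and -0.47.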

How the results depend on the processing

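No paired analysis was possible because each group has 1 list per caller and no column per replicate. Of 98 alternative values for sums, shares and counts of calls, 71 lay within the main value's counting interval or, for counts, within 1.5 times it, 25 moved and 2 reversed. Without scaling by the list totals, the summed changes were -0.24 in ESCs and -0.44 in NPCs with auxin, both reversed, and 0.65 and 0.44 between NPCs and ESCs in the control and auxin lists. Genes called higher with auxin in ESCs numbered 1 in FitHiChIP, 1 at an FDR under 1e-04 and 5 with no filter (3 in the main setting), and 0 were called lower with neighbouring bins (1). The genes added with no filter were Sox7 and Mixl1. Both held 0 MAPS loops in both ESC lists and passed through the scaling alone (1.04 each), so they gained no loops. In NPCs 2 were called lower at the strict FDR (1), and 3 higher at the strict FDR, 3 with neighbouring bins and 0 without Gata4 (1), the last chosen after seeing the data. Higher in NPC control than in ESC control was 1 in FitHiChIP, 1 at the strict FDR and 1 with at least 10 loops (2). Between the auxin lists 1 was lower at the strict FDR (3), and 1, 1 and 0 higher in FitHiChIP, at the strict FDR and with at least 10 loops (3). Contacts at shared loops changed by -0.076 in ESCs and -0.142 in NPCs with auxin in FitHiChIP, by -0.057 and -0.251 scaled by total contacts, and by -0.026 and 0.084 between control and auxin lists of the cell types in FitHiChIP. Allowing partners to differ by 1 bin, 68.5% and 68.1% of loops were called again. Among single genes 96 values lay within the wide counting interval of the main value, but 10 of these had the other sign and 17 crossed the 2-fold threshold, among them Eomes with auxin in NPCs (0.18, and -1.02 in FitHiChIP) and Gata4 between the auxin lists (2.21, and 0.46). Another 3 moved and 2 reversed, Gsc with auxin in NPCs (0.85) and Sox7 between the control lists (-0.42), both in FitHiChIP; Eomes with auxin in NPCs moved to -2.07 at the strict FDR. The causes were not tested. Low loop numbers limit each value: each of the 10 genes held at most 27 loops in any MAPS or FitHiChIP list.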
